A study of Arabis alpina with 12 samples.

Results

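V3 buds and main shoot apices of wild-type Arabis alpina, a perennial relative of Arabidopsis thaliana, were compared to describe which genes differ between buds taken for the study of axillary branches and the tip of the main shoot at the end of cold treatment. The comparison used 6 of the 12 libraries of the study, chosen by their labels alone, namely 3 libraries of wild-type V3 buds and 3 of dissected wild-type shoot apices. The other 6 libraries came from the same 2 tissues of the line Aatoe2_IL, in which AaTOE2, a transcription factor gene of the APETALA2 family, is affected, and served only to look at the same tissue difference in a separate set of samples. All 4 groups were of the accession Pajares, and all plants had 8 weeks of long days followed by 8 weeks of vernalization, that is cold, in short days, so that no group without cold is at hand. Neither the nature of the lesion in Aatoe2_IL nor the meaning of the bud label V3 is given in the labels. Replicates are numbered in the labels, without a word on whether they were separate plants or pools. The p-values therefore cover the spread among these libraries alone, and part of it may be technical.

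In the shoot, the apical meristem makes leaves and, after the change to flowering, flowers, while axillary buds in the leaf axils either stay dormant or grow out as branches. In perennials such as A. alpina some shoots flower after cold and others stay vegetative and carry growth into the next season. Flowering in Arabidopsis is promoted by SPL transcription factors and repressed by APETALA2-like factors, and outgrowth of buds is held back by auxin transport in the stem, by strigolactone and abscisic acid, and favoured by cytokinin and sugar supply.

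Reads assigned to genes came to 9554047, 9491985 and 10129450 in wild-type V3 buds and to 12309478, 12036678 and 12032338 in wild-type apices, so that 1 CPM (counts scaled to a common library total) stood for 9.50 to 12.8 reads and values under 1 CPM rest on few reads. Along the first principal component, which held 56.9% of the variance of the 6 libraries, buds and apices were apart, and the next held 21.6% and set replicate 1 of both tissues apart from bud replicate 3. Reads counted outside genes were also the most frequent in replicate 1, with 21.5% in buds and 18.8% in apices, against 13.4% to 15.5% in the other 4 libraries. Arabidopsis names were available for the genes in the authors' 4 deposited tables, which hold genes that differed between the genotypes in these same libraries. A gene from the table of higher levels in Aatoe2_IL buds had to be lower in wild-type buds than in Aatoe2_IL buds. One from the table of lower levels in Aatoe2_IL apices had to be higher in wild-type apices than in Aatoe2_IL apices. Both kinds were thus chosen towards lower values in wild-type buds than in wild-type apices, though not every such gene showed them. The other pair of tables chose towards the opposite. Counts of named genes are therefore descriptions and carry no independent evidence of direction. Of the 42 markers of cell types looked for, 5 were found under the symbol looked for. The phloem marker SEOR2 is not among these, since it is named by its other symbol, SEOA. Markers of axillary buds (BRC1, BRC2), of the meristem (STM, WUS, CLV3), of organ boundaries and of xylem were not found, so that the labelled tissues were not checked against them. LHCB1.3, a light-harvesting protein gene and the marker of green leaf with a name, had 1689 to 1845 CPM in buds and 1459 to 2213 CPM in apices.

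In wild type, 1633 of 19211 genes tested differed between V3 buds and apices by edgeR's quasi-likelihood test at a Benjamini-Hochberg adjusted p under 0.05, which is 8.5% of the genes. Levels were higher in buds for 689 genes (3.59%) and lower for 944 (4.91%). At least 2-fold differences were found for 778 genes (4.05%), 285 higher and 493 lower in buds, at least 4-fold differences for 97 higher and 199 lower, and at least 8-fold differences for 37 higher and 75 lower. The median log2 fold change, V3 buds over apex, was 0.85 among the higher and -1.06 among the lower genes, against 0.02 over all genes tested, whose central 95% of values lay between -1.25 and 0.95. The 3 bud libraries did not overlap the 3 apex libraries in 1632 of the 1633 genes, and in 27.5% of all genes tested. With 3 libraries in each group a gene that passes will nearly always show no overlap, so that count adds nothing to the calls. The number of genes that passed was 861 without bud replicate 2, 987 without apex replicate 2 and 857 without apex replicate 3. It was 1793 without bud replicate 1 and 2184 with all 12 libraries in 1 fit. With the replicate number in the fit (the replicate block) it was 3937, though no label says that the numbers pair libraries. In such tissue samples fewer cells of a type and less RNA per cell cannot be told apart. Of the genes that passed, 179 had a named orthologue, 47 higher and 132 lower in buds, which is 42.3% of the 423 genes with an orthologue that were tested. That share is not comparable with the 8.5%, since the authors chose these genes on the same libraries. Of the 96 tested members of the gene lists below 39 passed, 13 higher and 26 lower in buds. Counts of single lists stand beside these shares and are not read as results about a list. Genes from the table of higher levels in Aatoe2_IL buds held 83 lower and 1 higher of 155, and those from the table of lower levels in Aatoe2_IL buds 36 higher and 1 lower of 62.

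**Figure D1:**
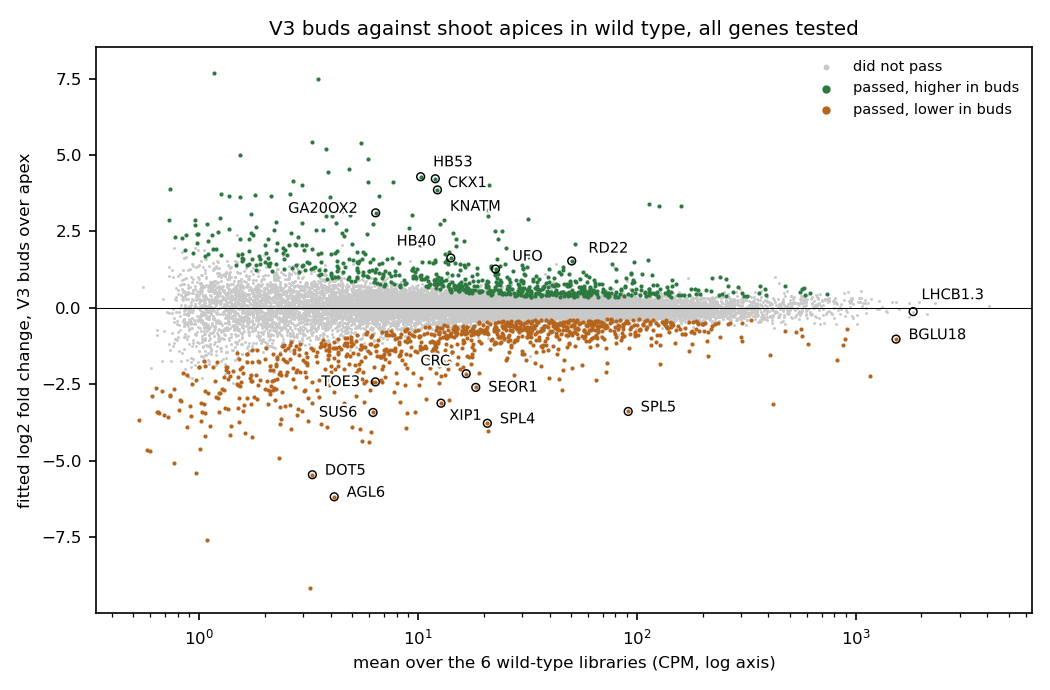
Fitted log2 fold change, V3 buds over apex, against the mean level over the 6 wild-type libraries (CPM, log axis) for the 19211 genes tested, with the 689 genes higher in buds in green, the 944 lower in buds in orange and the rest in grey. Circles mark genes described in the text: HB53, CKX1 and KNATM lie near 4 and SPL4 and SPL5 between -3 and -4, while LHCB1.3 lies near 0.

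Of the 4 SPL genes with a name, which belong to a family that promotes flowering, 3 were lower in buds. Members of all lists that were lower numbered 26 of 96, and genes tested that were lower 4.91%. The median log2 fold change of the 4 was -2.39, against 0.02 over all genes. It was -0.91 over the 155 genes named only through higher levels in Aatoe2_IL buds, to which the 4 belong. SPL5 and SPL4, closely related genes that promote the switch to floral meristems in Arabidopsis, were about an order of magnitude lower in buds. SPL5 (Aa_G1050h1) had 18.9, 16.8 and 12.2 CPM in bud replicates 1 to 3, against 205, 120 and 175 CPM in apex replicates 1 to 3. Its lowest apex library was several times its highest bud library, and the level was 10.4-fold lower in buds (log2 fold change -3.38, SE 0.22, edgeR adjusted p = 1.53e-05). SPL4 (Aa_G381970h1) had 4.84, 2.001 and 1.62 CPM in buds, against 44.4, 28.9 and 42.9 CPM in apices. The groups did not overlap, and SPL4 was 13.6-fold lower in buds (-3.77, SE 0.31, edgeR adjusted p = 6.59e-05), with a log2 fold change of -4.43 without bud replicate 1, the highest of the buds. SPL10 (Aa_G61880h1), of another branch of the family and tied in Arabidopsis to the vegetative phase change, had 24.6, 18.11 and 19.0 CPM in buds, against 52.2, 51.3 and 59.4 CPM in apices. It was 2.64-fold lower in buds (-1.40, SE 0.13, edgeR adjusted p = 1.54e-04), a smaller difference than that of SPL4 and SPL5, though the genes were not tested against each other. SPL3 (Aa_G438780h1), the close relative of SPL4 and SPL5, stood at 1.11, 0.632 and 0.304 CPM in buds and 1.41, 1.21 and 1.1 CPM in apices and did not pass (-0.85, SE 0.49, edgeR adjusted p = 0.337). Bud replicate 1 reached the lowest apex library in this gene, which rests on 20 reads in buds and 45 in apices. All 4 had a name through the table of higher levels in Aatoe2_IL buds.

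TOE3 (Aa_G165870h1), an APETALA2-like gene whose relatives repress flowering in Arabidopsis, was also lower in buds, with 2.72, 1.90 and 1.42 CPM in buds against 12.6, 8.55 and 11.3 CPM in apices. The groups did not overlap, and the level was 5.34-fold lower (-2.42, SE 0.28, edgeR adjusted p = 4.66e-04). TOE3 was the repressor with a name, while TOE2 itself has no name in the files and its level was not analysed here. VIN3 (Aa_G307430h1), which cold induces in Arabidopsis and which helps to silence the repressor FLC, had 5.64, 7.58 and 7.81 CPM in buds and 12.2, 8.12 and 12.9 CPM in apices. All bud libraries were below all apex libraries, but the difference did not pass (-0.66, SE 0.22, edgeR adjusted p = 0.106). With the replicate block VIN3 passed.

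Floral organ genes moved in both directions. UFO (Aa_G355720h1), an F-box gene that acts with LEAFY in flower patterning, was higher in buds, with 29.3, 30.9 and 36.0 CPM in buds against 15.1, 10.02 and 14.6 CPM in apices. Every bud library lay well above every apex library, and the level was 2.41-fold higher in buds (1.27, SE 0.17, edgeR adjusted p = 9.07e-04). CRC (Aa_G690520h1), a YABBY gene of carpels and nectaries, was 4.44-fold lower in buds, with 6.75, 5.58 and 5.98 CPM in buds against 21.4, 30.6 and 29.5 CPM in apices (-2.15, SE 0.18, edgeR adjusted p = 6.56e-05). AGL6 (Aa_G15980h1), a MADS-box gene of flowers, had 3 reads in buds, all in replicate 1, against 297 in apices, where its libraries held 8.06, 6.65 and 9.90 CPM. The apex level was 80.1 times that of buds, with an exact 95% interval of 27.2 to 391 that covers counting error only (edgeR adjusted p = 1.30e-04). AP1, the MADS-box gene of floral meristem identity, fell below the filter on low counts. It had 2 reads in bud replicate 1 and 0 in the other bud libraries, against 15, 6 and 16 reads in apices, a ratio of apices to buds of 15 (exact 95% interval 3.86 to 128). SHP2, a MADS-box gene of carpel and fruit development, was also below the filter, with 7 reads in buds and 9 in apices.

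**Figure D2:**
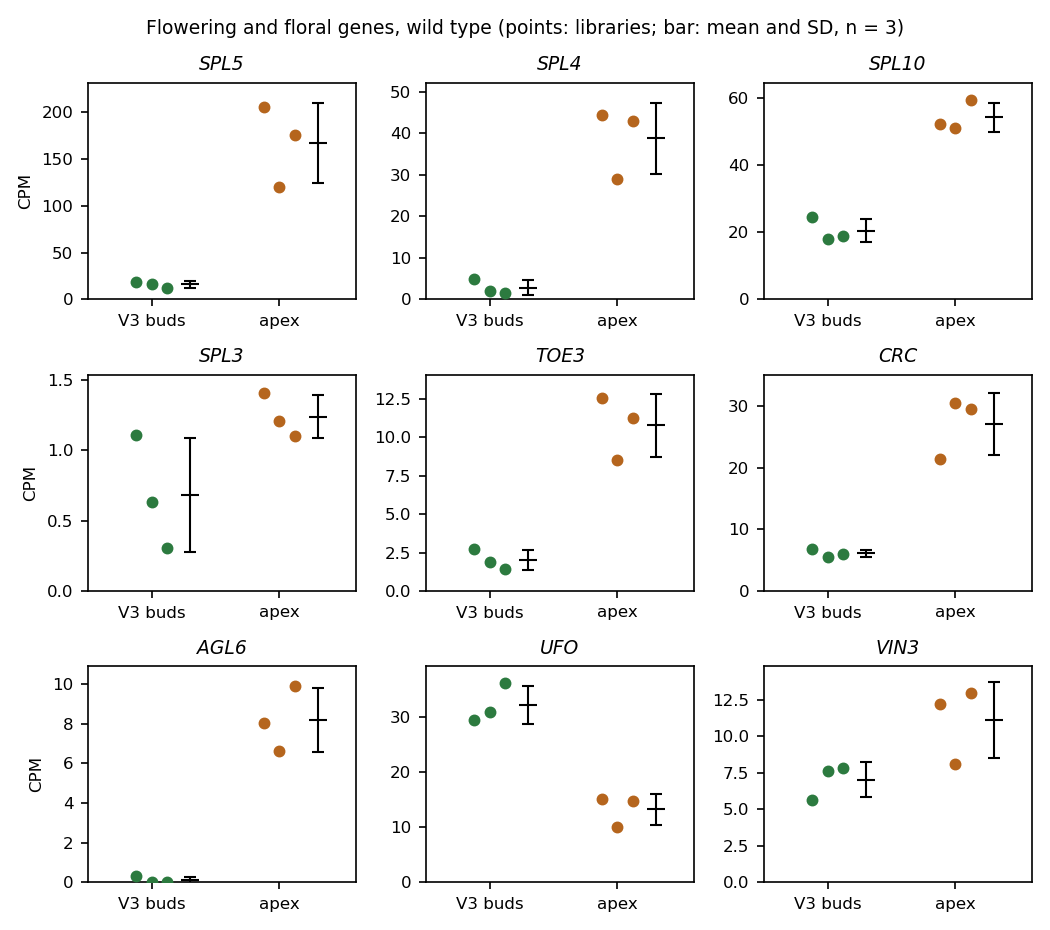
Level in CPM of 9 flowering and floral genes in the 3 V3 bud libraries (green, left) and the 3 apex libraries (orange, right) of wild type, each point a library, with mean and SD (n = 3) beside them. Bud libraries lie below apex libraries in all panels except UFO, where they lie above, and in SPL3 bud replicate 1 at 1.11 CPM reaches the lowest apex library at 1.1 CPM.

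Genes of the meristem and of organ boundaries held 1 higher and 1 lower in buds of 4 tested, with a median log2 fold change of -1.05. Beside this, 39 of 96 members of all lists and 8.5% of all genes tested passed. Of the 4, 3 were named through tables that choose towards lower values in wild-type buds and 1 through a table that chooses towards higher. KNATM (Aa_G777300h1), which encodes a KNOX protein without a homeodomain, had 19.2, 25.9 and 23.9 CPM in buds, against 1.64, 1.64 and 1.44 CPM in apices. Libraries of each tissue lay close together, and the level was 14.5-fold higher in buds (3.86, SE 0.20, edgeR adjusted p = 5.61e-06). DOT5 (Aa_G164270h1), a zinc finger gene of vein patterning, went the other way, with 0.202, 0 and 0.203 CPM in buds against 6.02, 4.32 and 9.05 CPM in apices. These values stand for 4 reads over the buds and 234 over the apices (-5.45, SE 0.57, edgeR adjusted p = 2.56e-04). AS2, a leaf polarity gene, had a log2 difference of -0.37 (SE 0.20, edgeR adjusted p = 0.314). LSH9, of the family of LIGHT SENSITIVE HYPOCOTYLS genes, had one of -1.74 (SE 0.49, edgeR adjusted p = 0.0557) on 11 reads in buds and 46 in apices. Neither passed, but LSH9 did with all 12 libraries in 1 fit and with the replicate block.

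Over all lists 13 of 96 tested members were higher in buds, and over all genes tested 3.59%. In the list of branching and bud dormancy genes 2 of 6 were higher in buds and none was lower, with a median log2 fold change of 0.66. Both that passed encode class I HD-ZIP factors which in Arabidopsis act below BRC1, the factor that keeps buds from growing out, and promote abscisic acid accumulation there. HB53 (Aa_G147020h1) had 21.6, 19.3 and 18.04 CPM in buds, against 1.33, 0.864 and 0.762 CPM in apices, where it rests on 36 reads. It was 19.6-fold higher in buds, the largest rise among the named genes described here (4.29, SE 0.23, edgeR adjusted p = 6.13e-06). HB40 (Aa_G223150h1) had 22.7, 21.8 and 19.8 CPM in buds, against 7.51, 7.69 and 5.50 CPM in apices. Its groups did not overlap either, and it was 3.1-fold higher in buds (1.63, SE 0.17, edgeR adjusted p = 2.30e-04). NCED3 (Aa_G56170h1), which encodes the rate-limiting enzyme of abscisic acid synthesis, had 8.26, 5.16 and 3.04 CPM in buds against 2.89, 2.07 and 1.27 CPM in apices. The lowest bud library lay just above the highest apex library and the test was not passed (1.39, SE 0.41, edgeR adjusted p = 0.0634), but without bud replicate 3 or by the DESeq2 Wald test NCED3 passed. DRM2, a dormancy-associated gene, had 208, 164 and 150 CPM in buds and 232, 208 and 107 CPM in apices, with groups that overlapped widely (-0.07, SE 0.24, edgeR adjusted p = 0.898). SEN1, induced by darkness, had a log2 difference of -0.40 (SE 0.20, edgeR adjusted p = 0.272). PIN3, an auxin efflux carrier gene, had one of -0.55 (SE 0.21, edgeR adjusted p = 0.151) and passed only with the replicate block.

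Of the cytokinin list 1 of 2 tested genes was higher in buds, and of the gibberellin list both were, against 13 of 96 members of all lists and 3.59% of all genes. CKX1 (Aa_G188410h1), a cytokinin oxidase that breaks down cytokinin, had 26.503, 21.2 and 20.9 CPM in buds, against 1.72, 1.12 and 0.762 CPM in apices. No bud library came near an apex library, and the level was 18.7-fold higher in buds (4.22, SE 0.25, edgeR adjusted p = 1.00e-05). LOG7, of a family that makes active cytokinin, had 3.02, 5.79 and 3.35 CPM in buds and 4.77, 3.11 and 5.33 CPM in apices and did not pass (-0.12, SE 0.32, edgeR adjusted p = 0.854). Of the gibberellin genes, GA20OX2 (Aa_G598100h1), a 20-oxidase of synthesis, had 11.7, 12.4 and 10.4 CPM in buds against 1.41, 0.864 and 1.69 CPM in apices. It was 8.63-fold higher in buds (3.11, SE 0.26, edgeR adjusted p = 7.22e-05). GA2OX4 (Aa_G418770h1), a 2-oxidase that inactivates gibberellin, had 7.76, 10.2 and 7.197 CPM in buds against 3.52, 2.94 and 1.78 CPM in apices, 3.04-fold higher (1.603, SE 0.28, edgeR adjusted p = 0.00533). CYP714A2, a cytochrome P450 gene of gibberellin metabolism that is in no list and was chosen after its values were seen, went the other way, with 4.54, 3.90 and 4.66 CPM in buds against 7.27, 8.55 and 8.21 CPM in apices (-0.87, SE 0.20, edgeR adjusted p = 0.0231). It lost its call with all 12 libraries in 1 fit and without bud replicate 2, apex replicate 2 or apex replicate 3.

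Abscisic acid genes held 1 higher in buds, none lower and 4 that did not pass. Higher in buds were 13 of 96 members of all lists and 3.59% of all genes tested. RD22 (Aa_G539240h1), which responds to dehydration, had 62.6, 79.7 and 82.9 CPM in buds, against 21.5, 27.8 and 28.4 CPM in apices, 2.90-fold higher (1.54, SE 0.15, edgeR adjusted p = 1.47e-04). RD29A, which responds to cold and abscisic acid, was at 288, 273 and 260 CPM in buds and 291, 411 and 323 CPM in apices (-0.32, SE 0.14, edgeR adjusted p = 0.212). RD29A passed only with the replicate block. RAB18, a dehydrin gene, varied widely within both tissues, with 98.4, 47.9 and 26.7 CPM in buds and 30.4, 277 and 13.0 CPM in apices (-0.89, SE 0.86, edgeR adjusted p = 0.593). Apex replicate 2 was the highest library and apex replicate 3 the lowest, and without apex replicate 2 the log2 fold change was 1.39. HAI2, a phosphatase gene of the abscisic acid response, had -0.91 (SE 0.64, edgeR adjusted p = 0.441), with -1.63 without bud replicate 1 and -0.26 without apex replicate 2. In the auxin list neither PIN3 nor GH3.2, which conjugates auxin to amino acids, passed, and GH3.2 had a log2 difference of -0.20 (SE 0.28, edgeR adjusted p = 0.726). The auxin-responsive gene SAUR16, in no list and chosen after its values were seen, was 4.28-fold lower in buds (-2.10, SE 0.32, edgeR adjusted p = 0.00238). GH3.17, chosen in the same way and of the same family as GH3.2, was 2.34-fold higher (1.23, SE 0.27, edgeR adjusted p = 0.0186) and lost its call without apex replicate 1 or apex replicate 3. The CKX1, GA20OX2, GA2OX4, RD22, HB40, KNATM and UFO genes had names through the table of lower levels in Aatoe2_IL buds, and HB53 through that of higher levels in Aatoe2_IL apices.

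**Figure D3:**
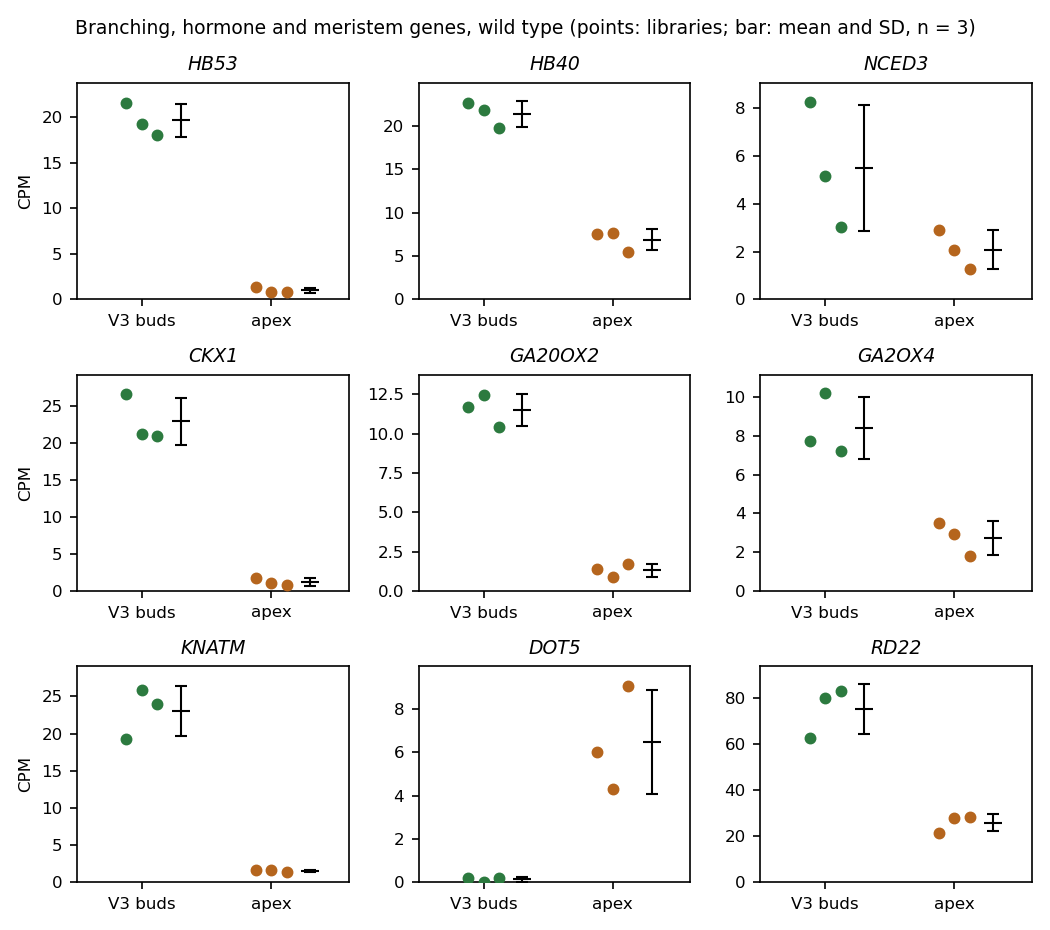
Level in CPM of 9 branching, hormone and meristem genes in the 3 V3 bud libraries (green, left) and the 3 apex libraries (orange, right) of wild type, each point a library, with mean and SD (n = 3) beside them. Bud libraries lie above apex libraries in all panels except DOT5, and in NCED3 the lowest bud library, at 3.04 CPM, is close to the highest apex library, at 2.89 CPM.

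All 7 tested genes of the vascular and sugar transport list were lower in buds, with a median log2 fold change of -3.11. SUS6 (Aa_G303450h1), a sucrose synthase of the phloem, had 0.907, 1.26 and 1.01 CPM in buds, against 11.5, 10.4 and 12.4 CPM in apices, 10.7-fold lower (-3.42, SE 0.24, edgeR adjusted p = 2.44e-05). XIP1 (Aa_G17360h1), a receptor kinase gene of vascular patterning, had 2.52, 3.48 and 1.93 CPM in buds against 19.1, 25.7 and 23.9 CPM in apices, 8.65-fold lower (-3.11, SE 0.22, edgeR adjusted p = 2.44e-05). SEOR1 (Aa_G451650h1), which encodes a filament protein of sieve elements, had 7.56, 3.26 and 4.76 CPM in buds against 29.0, 32.7 and 33.2 CPM in apices, 6.05-fold lower (-2.60, SE 0.23, edgeR adjusted p = 1.01e-04). In none of these did a bud library reach an apex library. ACL5 (Aa_G112840h1), whose product makes thermospermine and restrains xylem maturation, was 2.68-fold lower (-1.42, SE 0.23, edgeR adjusted p = 0.00315). The sugar exporter genes SWEET12 and SWEET13 were 9.18-fold and 6.77-fold lower, with 14 and 31 reads in buds against 161 and 260 in apices. SWEET13 had a log2 difference of -2.76 (SE 0.51, edgeR adjusted p = 0.00662) and one of -3.94 without bud replicate 1, which held most of its bud reads. PP2-A1, a phloem lectin gene, had 5 reads in buds and 122 in apices (-4.21, SE 0.66, edgeR adjusted p = 0.00272), and its log2 fold change was -5.75 without bud replicate 1. The 3 phloem markers found under the symbols looked for were SEOR1, SWEET12 and PP2-A1. Their summed level was 3.79 to 8.57 CPM in bud libraries and 37.3 to 43.3 CPM in apex libraries. The marker SEOR2, named SEOA here, is not in that sum. SEOA averaged 6.83 CPM in buds and 42.6 CPM in apices. The part of the amount of phloem in these samples in the other differences was not tested. All 7 had names through the tables that choose towards lower values in wild-type buds. Of genes named only through higher levels in Aatoe2_IL buds 83 of 155 were lower in wild-type buds than in apices. Of those named only through lower levels in Aatoe2_IL apices 40 of 98 were, against 4.91% of all genes tested.

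The median log2 fold change of the 10 tested cold and dehydration genes was -0.42. Against 8.5% of all genes tested and 39 of 96 members of all lists, 1 of the 10 passed, lower in buds. It was COR413-PM1, a membrane protein gene induced by cold, with 136, 104 and 97.3 CPM in buds against 153, 172 and 200 CPM in apices (-0.64, SE 0.15, edgeR adjusted p = 0.0257), and it no longer passed in 4 of the 6 fits that left out a library. KIN2, another cold-induced gene, had 835, 805 and 855 CPM in buds and 1015 to 1398 CPM in apices, without overlap, and just missed the threshold (-0.52, SE 0.14, edgeR adjusted p = 0.0512). It passed by the DESeq2 Wald test, with library totals without TMM, with no filter, with the replicate block and without apex replicate 1. Among 14 heat shock genes 3 were lower in buds and none was higher, with a median of -0.27. Over all lists 26 of 96 members were lower, and over all genes 4.91%. The 3 encode small heat shock proteins: HSP17.6B had a log2 difference of -0.86 (SE 0.16, edgeR adjusted p = 0.00810), HSP23.6 of -1.87 (SE 0.38, edgeR adjusted p = 0.0110) and HSP18.2 of -1.36 (SE 0.33, edgeR adjusted p = 0.0267). Each of these 3 lost its call without apex replicate 2 or without bud replicate 2. The cochaperone genes FES1A and BAG6 had log2 fold changes of -0.29 and -0.23 and did not pass, though FES1A did with the replicate block and without bud replicate 1. HSP17.6II was below the filter, with 12 reads in buds and 43 in apices.

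Of 10 clock and photoperiod genes 1 was higher and 1 lower in buds, with a median log2 fold change of 0.65. For comparison, 39 of 96 members of all lists and 8.5% of all genes passed in either direction. RVE8, a MYB-like factor that activates evening genes, had 9.88, 8.11 and 9.33 CPM in buds against 4.77, 3.11 and 4.57 CPM in apices (1.13, SE 0.23, edgeR adjusted p = 0.0105). COL1, a relative of CONSTANS, had 3.73, 3.26 and 3.04 CPM in buds against 8.68, 6.48 and 6.18 CPM in apices (-1.09, SE 0.24, edgeR adjusted p = 0.0170). Both calls were lost with all 12 libraries in 1 fit, and that of COL1 also without bud replicate 2 or apex replicate 1. The morning gene LHY had 37.5, 40.1 and 43.4 CPM in buds and 25.6, 14.9 and 32.9 CPM in apices (0.72, SE 0.22, edgeR adjusted p = 0.0767), and EPR1 had a log2 difference of 0.22 (SE 0.18, edgeR adjusted p = 0.518). LHY passed by the DESeq2 Wald test, with no filter on low counts, with the replicate block and without apex replicate 3. The labels do not give the hour of harvest.

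Glucosinolate genes, which make the defence compounds of the cabbage family, were split, with 3 higher, 3 lower and 11 not passing of 17 tested. Members of all lists that passed were 39 of 96, and genes tested that passed 8.5%. FMOGS-OX6 (Aa_G261880h1), of the oxygenase family that modifies side chains of aliphatic glucosinolates, had 19.4, 16.1 and 15.6 CPM in buds against 3.36, 3.11 and 3.98 CPM in apices, 4.88-fold higher (2.29, SE 0.19, edgeR adjusted p = 6.03e-05). IQD1, a calmodulin-binding regulator of the pathway, was 5.83-fold higher in buds, on 110 reads in buds and 23 in apices (2.54, SE 0.38, edgeR adjusted p = 0.00222). CYP79A2, of the phenylalanine branch, was 2.30-fold higher (1.203, SE 0.31, edgeR adjusted p = 0.0372), a call lost in each of the 6 fits that left out a library. Lower in buds were 2 genes of the indole branch and SOT17, a sulfotransferase. CYP79B2 (Aa_G486300h1) had 9.98, 7.79 and 5.37 CPM in buds against 41.0, 22.1 and 19.2 CPM in apices, 3.56-fold lower (-1.83, SE 0.30, edgeR adjusted p = 0.00380), and CYP83B1 was 1.68-fold lower (-0.75, SE 0.17, edgeR adjusted p = 0.0196). SOT17 was 2.17-fold lower (-1.12, SE 0.25, edgeR adjusted p = 0.0194). CYP83B1 lost its call with all 12 libraries in 1 fit and without bud replicate 2 or bud replicate 3, and SOT17 without bud replicate 2. GSTF9 and the C-S lyase gene SUR1, the highest of the list that did not pass, had log2 fold changes of -0.43 and -0.65. Both passed with the replicate block and without bud replicate 1. SUR1 (edgeR adjusted p = 0.0512) also passed by the DESeq2 Wald test, with DESeq2 size factors and with no filter on low counts. IPMI2 was below the filter.

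In the light and shade list 1 of 4 passed, against 39 of 96 members of all lists and 8.5% of all genes tested. XTH15 (Aa_G191150h1), which encodes an enzyme that remodels cell wall xyloglucan, had 8.06, 12.3 and 16.9 CPM in buds against 53.7, 90.5 and 93.1 CPM in apices, 6.35-fold lower (-2.67, SE 0.27, edgeR adjusted p = 1.91e-04). LHCB1.3 had a log2 difference of -0.12 (SE 0.17, edgeR adjusted p = 0.714), and the phytochrome-interacting factor gene PIF5 of -0.21 (SE 0.21, edgeR adjusted p = 0.610). Among 3 defence genes, PR4 was 8.39-fold higher in buds on 91 reads against 13 in apices (3.07, SE 0.43, edgeR adjusted p = 0.00148). CNGC4 (Aa_G516250h1), a cation channel gene, had 5.84, 3.37 and 5.17 CPM in buds against 22.2, 20.6 and 22.6 CPM in apices, 4.53-fold lower (-2.18, SE 0.19, edgeR adjusted p = 1.03e-04). LOX2, of jasmonate synthesis, had -0.19 (SE 0.28, edgeR adjusted p = 0.731). WRKY40, a transcription factor gene of stress responses, was below the filter, with 12 reads in buds and 112 in apices, 88 of them in apex replicate 2. In the list of nitrogen and amines, ADC1 (Aa_G543430h1), an arginine decarboxylase of polyamine synthesis, had 18.6, 15.4 and 17.5 CPM in buds against 35.4, 35.8 and 34.9 CPM in apices (-1.04, SE 0.11, edgeR adjusted p = 3.57e-04). CLC-A (Aa_G229820h1), which moves nitrate into the vacuole, had 18.04, 16.5 and 14.1 CPM in buds against 31.1, 33.3 and 30.0 CPM in apices (-0.96, SE 0.13, edgeR adjusted p = 0.00102). The nitrate reductase gene NIA1 did not pass (0.16, SE 0.10, edgeR adjusted p = 0.381), nor did F3PH, a flavonoid hydroxylase gene (0.03, SE 0.37, edgeR adjusted p = 0.973). No gene of the cell division list had a name.

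**Figure D4:**
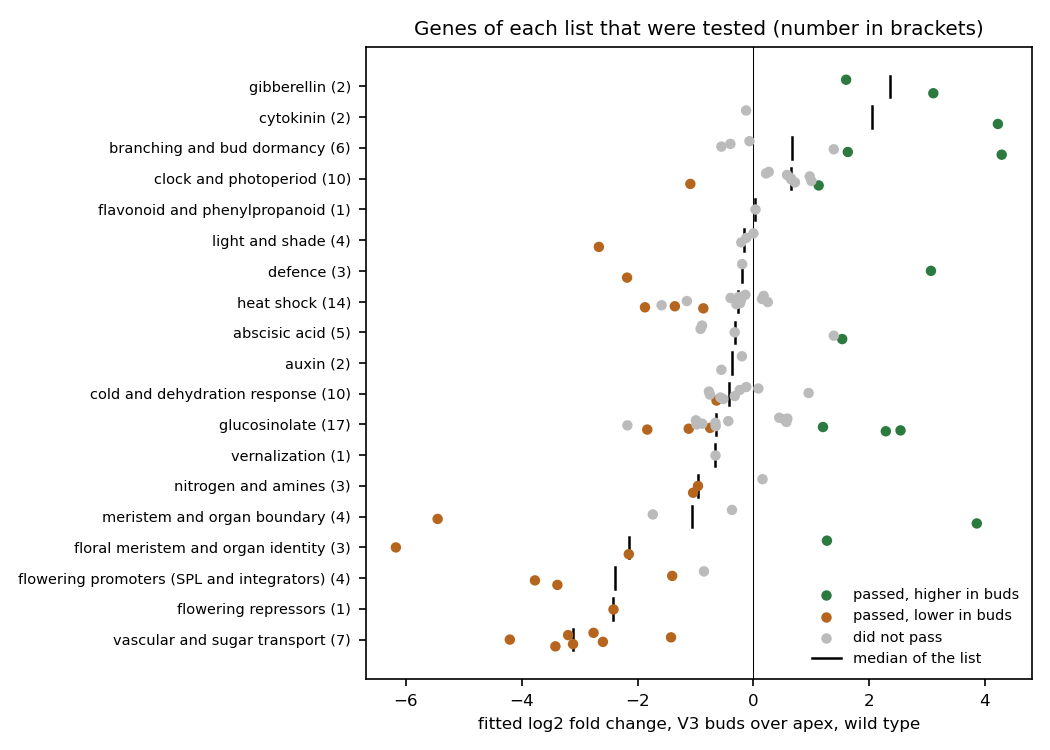
Fitted log2 fold change, V3 buds over apex, in wild type of the tested members of each gene list, each point a gene, green for higher and orange for lower in buds where the edgeR test was passed and grey where it was not, with the median of the list as a bar. All 7 vascular and sugar transport genes lie left of 0 and both gibberellin genes right of it, while of 17 glucosinolate genes 3 passed on each side.

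Among the largest differences outside the lists, genes higher in buds included WIP5 (Aa_G415060h1), a zinc finger gene, 12.5-fold higher on 75 reads in buds against 7 in apices (3.65, SE 0.49, edgeR adjusted p = 0.00113), with a log2 fold change of 4.24 without apex replicate 3. UGT85A1 (Aa_G549800h1), a glucosyltransferase gene whose Arabidopsis product acts on cytokinins, had 18.5, 13.6 and 18.04 CPM in buds against 3.05, 1.296 and 1.69 CPM in apices, 8.20-fold higher (3.03, SE 0.28, edgeR adjusted p = 1.39e-04). NPF7.2, a nitrate transporter gene, had 8.97, 12.4 and 11.05 CPM in buds against 1.17, 3.196 and 0.508 CPM in apices (2.74, SE 0.44, edgeR adjusted p = 0.00340), with a log2 fold change of 3.64 without apex replicate 2. TPPI (Aa_G458480h1), a trehalose 6-phosphate phosphatase gene, had 39.0, 41.9 and 42.8 CPM in buds, against 8.60, 5.18 and 7.62 CPM in apices. The bud libraries lay close together, and the level was 5.75-fold higher (2.52, SE 0.17, edgeR adjusted p = 1.63e-05). MSL9, a mechanosensitive channel gene, was 5.34-fold higher and PLL18, a pectate lyase-like gene, 5.11-fold higher in buds. AT1G47980 had 31.1, 7.58 and 4.87 CPM in buds against 1.09, 0.9502 and 0.423 CPM in apices. Bud replicate 1 stood far above the other bud libraries, and without it the log2 fold change was 2.88, against 4.12 with it (SE 0.72, edgeR adjusted p = 0.00531). AT5G66440 was 4.83-fold higher in buds.

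Lower in buds were the cell wall gene EXPA9 (Aa_G274600h1), an expansin, with 0.605, 1.26 and 1.42 CPM in buds against 17.83, 17.45 and 14.5 CPM in apices. It was 15.02-fold lower (-3.91, SE 0.27, edgeR adjusted p = 1.85e-05). FTIP1 (Aa_G386480h1), which in Arabidopsis helps move the flowering signal FT from companion cells into sieve elements, had 0.605, 0.316 and 0.405 CPM in buds against 4.22, 5.27 and 6.01 CPM in apices, 11.4-fold lower (-3.51, SE 0.37, edgeR adjusted p = 2.56e-04). ZPR2 (Aa_G48790h1), a little zipper gene whose relatives inhibit class III HD-ZIP factors, had 2.12, 1.26 and 1.62 CPM in buds against 17.44, 18.14 and 17.7 CPM in apices. Its apex libraries were nearly equal, and the level was 10.6-fold lower in buds (-3.40, SE 0.21, edgeR adjusted p = 1.23e-05). AGP12, an arabinogalactan protein gene, was 10.3-fold lower on 15 reads in buds against 194 in apices. AT3G05858, AT3G12710, AT1G30160 and AT2G30540, with no role given here, were 20.6-fold, 15.5-fold, 14.98-fold and 13.8-fold lower. AT1G30160 and AT2G30540 had log2 fold changes of -4.51 and -4.77 without bud replicate 2, against -3.91 and -3.79 with all libraries.

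Among the 6 named genes with the highest levels that passed in each direction were SPL5, UFO, RD22, TPPI, COR413-PM1, HSP17.6B and CYP83B1, whose values are given with their lists or largest differences. BGLU18 (Aa_G669290h1), a glucosidase gene whose product releases abscisic acid from its glucose ester, averaged 1011 ± 170 CPM in buds and 2050 ± 331 CPM in apices (SD, n = 3 each; -1.02, SE 0.17, edgeR adjusted p = 0.00432), a call lost with all 12 libraries in 1 fit. AT4G29270 averaged 56.4 ± 3.51 CPM in buds and 199 ± 3.36 CPM in apices (-1.82, SE 0.11, edgeR adjusted p = 7.64e-06). AT5G17760, AT1G23000 and SRS5, a gene of the SHI family, were 1.70-fold, 1.55-fold and 1.76-fold higher in buds, and each lost its call in 2 to 5 of the 6 fits without a library. Of genes without a name that had over 3 reads in each tissue and no overlap, Aa_G212410h1 and Aa_G232120h1 were the largest rises, 43.1-fold and 41.7-fold, on 189 and 317 reads in buds against 5 and 9 in apices. Their order rests on few reads: Aa_G212410h1 had a log2 fold change of 6.11 without apex replicate 2, against 5.43 with all libraries, and Aa_G232120h1 one of 6.79 without apex replicate 1, against 5.38. Aa_G819160h1 and Aa_G634480h1 were the largest falls by the same limits, 30.3-fold and 20.3-fold, on 4 and 15 reads in buds against 159 and 384 in apices. Of all genes that passed, 16 had 0 to 3 reads in buds and 4 had 0 to 3 in apices.

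The same tissue difference was then taken in Aatoe2_IL, whose 6 libraries are separate from those of wild type. There 1037 of 18944 genes passed edgeR's test (5.47%) in a fit that did not pair the replicate numbers. Of the 1633 genes that passed in wild type 1563 were tested in Aatoe2_IL, and 1293 of them (82.7%) had the same direction, against 56.6% of all 18763 genes tested in both. Of these, 464 also passed in Aatoe2_IL, and 8 passed there in the opposite direction. With the replicate number as a block, 3155 genes passed in Aatoe2_IL, and of the genes that passed in wild type 809 passed there in the same and 36 in the opposite direction. The count of 464 was 278 without Aatoe2_IL apex replicate 3 and 284 without Aatoe2_IL apex replicate 2. The median absolute log2 fold change of the 1563 genes was 0.44 in Aatoe2_IL and 0.92 in wild type. Since these genes were chosen as passing in wild type, that gap is a description only.

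Several genes differed between buds and apices in the same direction in Aatoe2_IL, here by the fit without the replicate block. CKX1 averaged 11.2 ± 3.65 CPM in Aatoe2_IL buds and 0.507 ± 0.482 CPM in Aatoe2_IL apices (SD, n = 3 each), a log2 fold change of 4.37 (edgeR adjusted p = 8.01e-04), close to the 4.22 of wild type. HB53 averaged 37.9 ± 6.02 CPM in Aatoe2_IL buds and 5.54 ± 3.97 CPM in Aatoe2_IL apices (2.75, edgeR adjusted p = 0.00222). SPL4 averaged 7.92 ± 1.86 CPM in Aatoe2_IL buds and 45.5 ± 1.03 CPM in Aatoe2_IL apices (-2.51, edgeR adjusted p = 4.12e-05), and NPF7.2 had a log2 fold change of 4.55 (edgeR adjusted p = 3.87e-04). GA20OX2 (1.996), HB40 (0.96), TOE3 (-1.28), SPL10 (-1.03), EXPA9 (-1.87) and ZPR2 (-1.87) also passed there in the direction of wild type. NCED3, which did not pass in wild type, had a log2 fold change of 2.27 in Aatoe2_IL (edgeR adjusted p = 0.0128).

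The difference between the genotypes in the tissue difference, Aatoe2_IL minus wild type, passed for 202 of 19520 genes (1.03%), 147 of them among the genes that passed in wild type (652 with the replicate block). Both tests share the wild-type libraries, so that nothing is read from that overlap. Of the genes with an interaction described here, UFO, ADC1, CLC-A and AT1G23000 passed in both genotypes in opposite directions. UFO averaged 8.84 ± 1.97 CPM in Aatoe2_IL buds and 16.7 ± 2.52 CPM in Aatoe2_IL apices, lower in buds, whereas in wild type it averaged 32.1 ± 3.49 CPM in buds and 13.3 ± 2.81 CPM in apices (interaction -2.18, SE 0.26, edgeR adjusted p = 0.00254). ADC1 averaged 58.7 ± 7.69 CPM in Aatoe2_IL buds and 34.8 ± 6.17 CPM in Aatoe2_IL apices, against 17.2 ± 1.66 CPM in wild-type buds and 35.4 ± 0.408 CPM in wild-type apices (interaction 1.81, SE 0.19, edgeR adjusted p = 0.00193). CLC-A averaged 48.1 ± 5.62 CPM in Aatoe2_IL buds and 28.5 ± 5.69 CPM in Aatoe2_IL apices, against 16.2 ± 1.99 CPM in wild-type buds and 31.5 ± 1.72 CPM in wild-type apices (interaction 1.72, SE 0.20, edgeR adjusted p = 0.00254). AT1G23000 averaged 41.2 ± 6.08 CPM in Aatoe2_IL buds and 64.8 ± 3.64 CPM in Aatoe2_IL apices, against 85.0 ± 17.61 CPM in wild-type buds and 55.0 ± 6.30 CPM in wild-type apices (interaction -1.27, SE 0.21, edgeR adjusted p = 0.0138). These genes have names because the authors listed them as different between the genotypes in these libraries, which favours such interactions.

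**Figure D5:**
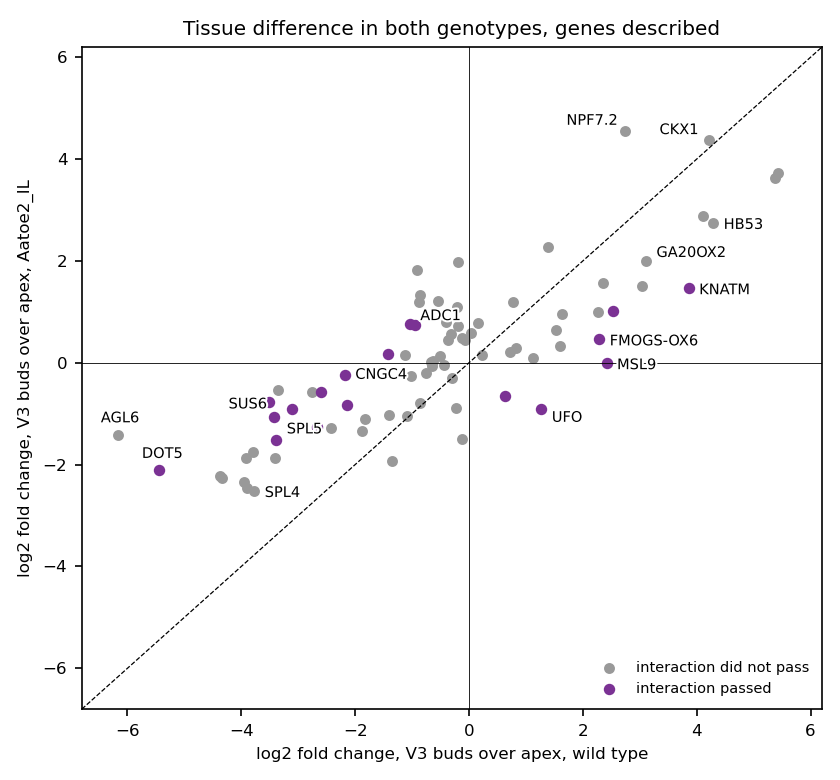
Fitted log2 fold change, V3 buds over apex, in Aatoe2_IL (vertical axis) against wild type (horizontal axis) for the genes described that were tested in both, with those whose interaction passed in purple and the dashed line for equal values. UFO is at -0.91 in Aatoe2_IL and 1.27 in wild type, while CKX1 lies close to the dashed line.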

How the data were processed

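Poly(A) RNA was read as single reads of 100 bp from strand-specific libraries, per the labels' protocols. The deposited table held raw read counts per gene, and its 5 counters of reads not assigned to a gene entered neither library sizes nor tests. Reads in no gene were 13.4% to 21.5% of all reads in genes, in no gene or ambiguous. STAR, HTSeq 0.5.4p1, DESeq and DESeq2 are named, without roles, in the submitters' processing notes. The build, the annotation and how strand was treated in counting are not given in the sources used here, which leaves overlapping and antisense genes uncertain, and coordinates are left out. Genes in the authors' 4 deposited tables passed, per the file headers, a fold (a linear ratio of group means) of 2 and an adjusted p-value of 0.05 between genotypes. Their mean normalized count (signal) served only to match 732 of 732 entries to identifiers within 0.5%, and the deposited log2 values and p-values were not used. These tables name 627 genes, 446 with an orthologue, whose Arabidopsis names are used.

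edgeR 4.0.16 (R 4.3.3) was run on the counts of the 6 wild-type libraries, with TMM factors and its quasi-likelihood F test, and its default filter on low counts left 19211 of 34220 genes, with 4 residual degrees of freedom and a common biological coefficient of variation of 0.135. Benjamini-Hochberg adjustment ran over all genes tested. Levels are CPM, scaled to reads in genes that passed the filter. They are not per length, so that levels of different genes are not compared. An SE was obtained from the fitted log2 value and the root of F, and is approximate at few counts. A group with 1 to 3 reads is given as a ratio with an exact 95% interval for counting error only. Aatoe2_IL was fitted apart in the same way, and the interaction in 1 fit of 12 libraries. Scripts were tested on simulated data.

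Members and the 20 gene lists (551 symbols, 100 genes with a name) were chosen with earlier results of these data known. The naming rule took all named members of lists about flowering, floral organs, meristems, branching, hormones and vascular tissue. For the other lists it took up to 6 that passed with the smallest p and up to 2 of the highest expressed that did not. It added the 15 largest rises and falls with a name, the 6 highest expressed that passed in each direction, genes with 0 to 3 reads in 1 group, the 4 smallest interaction p and, without a name, 2 rises and 2 falls. Alternatives were DESeq2 1.42.0 (test, size factors), other filters, all 12 libraries in 1 fit, a replicate block, library totals without TMM and a block in Aatoe2_IL alone (both added after seeing the data) and leaving out each library. The labels do not say that replicate numbers pair bud and apex libraries. Deviations of same-numbered libraries correlated at 0.377, 0.0608 and 0.269 in wild type and at 0.443, 0.351 and 0.273 in Aatoe2_IL, where all 3 were over 0.1. The numbers were taken as pairs in Aatoe2_IL only for the counts given with the replicate block. All p-values of single genes in Aatoe2_IL and of interactions come from fits without the block, which ignore that pairing.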

Additional observations from a re-analysis of the deposited data

Results flagged for a closer look

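For 24 of the genes described here the tissue difference itself differed between the genotypes by edgeR's interaction test with Benjamini-Hochberg adjustment over 19520 genes, coded as the log2 fold change, V3 buds over apex, in Aatoe2_IL minus that in wild type. All 24 have names because the authors listed them as different between the genotypes in these libraries, so that these tests are not independent of how the genes were chosen, and no cause was tested.

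Among flowering and meristem genes the value was 1.88 for SPL5, 1.34 for CRC, -2.18 for UFO, -2.38 for KNATM and 3.34 for DOT5. SPL5 averaged 104 ± 33.3 CPM in Aatoe2_IL buds and 296 ± 52.6 CPM in Aatoe2_IL apices, against 15.99 ± 3.47 CPM in wild-type buds and 167 ± 42.9 CPM in wild-type apices (SD, n = 3 each). KNATM averaged 6.23 ± 1.64 CPM in Aatoe2_IL buds and 2.24 ± 0.623 CPM in Aatoe2_IL apices, against 23.0 ± 3.42 CPM in wild-type buds and 1.57 ± 0.117 CPM in wild-type apices. Vascular genes had 2.37 (SUS6), 2.22 (XIP1), 2.04 (SEOR1) and 1.61 (ACL5), all towards a smaller difference in Aatoe2_IL. That is not particular to vascular genes. Of the 147 genes with an interaction that passed in wild type, 143 had a smaller difference in Aatoe2_IL, and all were chosen as passing in wild type. The light, defence and glucosinolate genes XTH15, CNGC4 and FMOGS-OX6 had 1.41, 1.96 and -1.81. The polyamine gene ADC1 had 1.81 and the nitrate gene CLC-A 1.72, and both were higher in buds than in apices in Aatoe2_IL and lower in wild type. Other named genes were TPPI at -1.49, MSL9 at -2.41, FTIP1 at 2.75 and AT1G23000 at -1.27, the last lower in buds in Aatoe2_IL and higher in wild type.

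A further 6 genes were chosen after their values were seen: the auxin-responsive gene SAUR16 (2.53), the GRAS factor gene HAM4 (1.75), the ribonucleotide reductase gene RNR2A (1.045), the homeodomain gene BLH2 (2.06), the phloem potassium channel gene AKT2 (2.57) and SEOA (1.99). SEOA is the listed phloem marker SEOR2 under another symbol.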

How the results depend on the processing

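The count of 1633 genes was 1499 to 2184 under the DESeq2 test, DESeq2 size factors, library totals without TMM, no filter, a stricter filter and all 12 libraries in 1 fit, and none of its genes changed sign under any setting. With the replicate block 3937 genes passed, 1875 higher and 2062 lower in buds. In wild type every bud library correlated best with the apex library of its own number, but 1 of 3 same-number correlations was under 0.1 and apex replicate 2 correlated best with bud replicate 3 (0.164), so that the numbers were not taken as pairs there. Leaving out 1 library gave 857 to 1793 genes in all, 267 to 708 higher and 563 to 1133 lower in buds. Genes that also passed in Aatoe2_IL in the same direction numbered 278 to 488, and 809 with the replicate block in Aatoe2_IL. The 147 genes with an interaction were 31 to 227 without 1 library, 346 by the DESeq2 test and 652 with the replicate block. The cause was not tested.

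Of 119 genes followed under the alternatives 77 passed, and 61 of these passed under all 13 alternatives. Calls were lost most often without bud replicate 2 (12 genes) and with all 12 libraries in 1 fit (9). In the other direction, genes that did not pass in the main fit gained a call 40 times over the alternatives. Direction turned only in genes that did not pass. Leaving out 1 library gave log2 fold changes of -0.35 to 0.13 (DRM2), -0.48 to 0.035 (LOG7), -1.53 to 1.39 (RAB18), -0.44 to 0.26 (LOX2), -0.24 to 0.25 (F3PH), -0.25 to 0.64 (HSFA2), -0.70 to 2.65 (LTI65), -0.33 to 0.43 (LTP4), -0.12 to 2.84 (LTP3), -2.36 to 0.89 (HSFA7A) and -0.094 to 1.36 (MYB29). With the replicate block RAB18 was at 0.010 and LTI65 at 0.59. Depth limits genes under about 1 CPM, which rest on 9.50 to 12.8 reads per library or fewer.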

Other observations

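Further phloem and xylem genes, chosen after their values were seen and named through the table of higher levels in Aatoe2_IL buds, were lower in wild-type V3 buds than in apices. SEOA, which like SEOR1 encodes a sieve element filament protein, had 9.47, 7.06 and 3.95 CPM in buds against 45.1, 41.1 and 41.6 CPM in apices (log2 fold change -2.64, edgeR adjusted p = 7.28e-05). It had been listed as a phloem marker under its other symbol, SEOR2. SKOR, which loads potassium into the xylem, had 12.7, 13.6 and 14.1 CPM in buds against 64.1, 53.2 and 81.1 CPM in apices (-2.30, edgeR adjusted p = 1.95e-05). AKT2, a phloem potassium channel gene, had 2.12, 0.842 and 1.52 CPM in buds against 5.63, 6.65 and 5.92 CPM in apices (-2.01, edgeR adjusted p = 0.00307). SMXL3, a gene of phloem formation, had -1.89 (edgeR adjusted p = 0.0158) and lost its call without bud replicate 2, apex replicate 2 or apex replicate 3.

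Of other genes chosen in the same way, WRKY57, a transcription factor gene, had 16.1, 17.5 and 15.8 CPM in buds against 3.52, 4.15 and 4.06 CPM in apices (2.07, edgeR adjusted p = 6.03e-05). HB1, a non-symbiotic haemoglobin gene, had 23.1, 31.7 and 38.3 CPM in buds against 9.23, 9.76 and 17.0 CPM in apices (1.37, edgeR adjusted p = 0.00593). FLS2, the flagellin receptor gene, had 2.52, 3.37 and 2.94 CPM in buds against 10.3, 9.93 and 12.6 CPM in apices (-1.89, edgeR adjusted p = 4.56e-04). HAM4, a meristem maintenance gene, had 2.52, 1.16 and 2.13 CPM in buds against 8.84, 11.7 and 10.7 CPM in apices (-2.41, edgeR adjusted p = 4.90e-04).

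Apex replicate 2 stood above the other apex libraries in several stress genes and below them in others. LTI65, responsive to cold and abscisic acid, had 12.9, 8.42 and 3.35 CPM in buds and 2.11, 24.5 and 0.423 CPM in apices. LTP3, a lipid transfer protein gene, had 6.65, 2.53 and 0.608 CPM in buds and 0.782, 4.23 and 0.0846 CPM in apices. RAB18, WRKY40, HAI2, LTP4 and RD29A were likewise highest in apex replicate 2 among the apices. The heat shock factor genes HSFA2 and HSFA7A were lowest there. In apex replicates 1 to 3 HSFA2 had 40.98, 12.7 and 25.55 CPM and HSFA7A had 23.7, 1.296 and 3.3 CPM. These examples were picked after their values were seen. The cause was not tested.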
